A study of Mus musculus with 35 samples.

Results

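The genes described here carry long-chain fatty acids into the mitochondria and oxidize them. They are *Cd36*, *Cpt1a*, *Cpt1b*, *Cpt1c*, *Cpt2*, *Acadvl*, *Acadl*, *Acadm*, *Hadha* and *Hadhb*, 10 of the 55356 genes in the count table. They were taken by symbol, and each was found at a locus defined by Iso-seq, the PacBio sequencing of full-length cDNA, through a deposited map of ENSEMBL genes to these loci. The question put to them is how their levels differ among 6 tissues, between the sexes and among the 3 Cpt1 genes.

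In fatty acid oxidation, CD36 at the cell surface takes up long-chain fatty acids, and carnitine palmitoyltransferase 1 at the outer mitochondrial membrane couples the activated acyl chain to carnitine, a step inhibited by malonyl-CoA. Carnitine palmitoyltransferase 2 returns the acyl chain to CoA inside the mitochondrion, acyl-CoA dehydrogenases of different chain-length preference start each round of oxidation, and the trifunctional protein completes the round for long chains. Heart muscle is known for its reliance on fatty acids and adult brain for its reliance on glucose, while *Cpt1b* is known as the muscle form, *Cpt1a* as the form of liver and many other organs, and *Cpt1c* as a neuronal form of the endoplasmic reticulum with little transferase activity.

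Total RNA of adult C57BL/6J mice was depleted of ribosomal RNA and sequenced as 29 strand-specific RNA-seq libraries. Brain, cerebellum, heart and colon were taken from females and males, ovary from females and testis from males, with 3 libraries for each of these 10 groups apart from male heart with 2. No treatment or genetic change is given for any group. Nothing states that the libraries of a group came from separate animals, so the p-values measure the spread between these samples, which may be technical. Tissues were sequenced in bulk, so fewer cells of a given type and less RNA per cell cannot be told apart.

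The libraries held 11742417 to 36194255 counts (median 24403774), and the counts behind the lowest tissue levels of the members were 17 to 33 reads for *Cpt1b* in ovary, 26 to 106 for *Cpt1c* in heart and 39 to 88 for *Cd36* in brain. A list of marker genes for each labelled tissue was summed in FPKM (counts per kilobase of exon, divided by the library's total), and in 6 of 6 tissues the lowest library of the tissue lay above the highest library of any other tissue. The nearest approach was the neuron list, at 1164 FPKM or more in brain and at most 1008 in cerebellum. Replicate 3 of female heart stood apart from the other 4 heart libraries. It held 2770 FPKM of the atrial hormone gene *Nppa* against 41.0 to 90.1, 695 FPKM of the adipocyte gene *Adipoq* against 0.0517 to 1.74, and 63.6 FPKM of the brown fat gene *Ucp1*, which had no count in the other 4. Its contractile gene *Myh6* reached 0.407 times their mean. The members' differences in heart are therefore given with and without this library.

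Levels are in FPKM, scaled on the total count of a library. For differences, edgeR's quasi-likelihood test was applied to the counts, scaled by TMM, which balances the bulk of genes between libraries, and a gene was called at a Benjamini-Hochberg adjusted p under 0.05 over 29911 tested genes. The 2 scales part where the TMM factor of a library lies away from 1. TMM factors were 0.604 to 0.711 in 4 heart libraries and 1.12 in replicate 3 of female heart, 1.30 to 1.45 in ovary and 0.856 to 0.874 in testis, so the fit places these 4 heart libraries and testis higher, and ovary and the remaining heart library lower, than FPKM does.

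**Figure D1:**
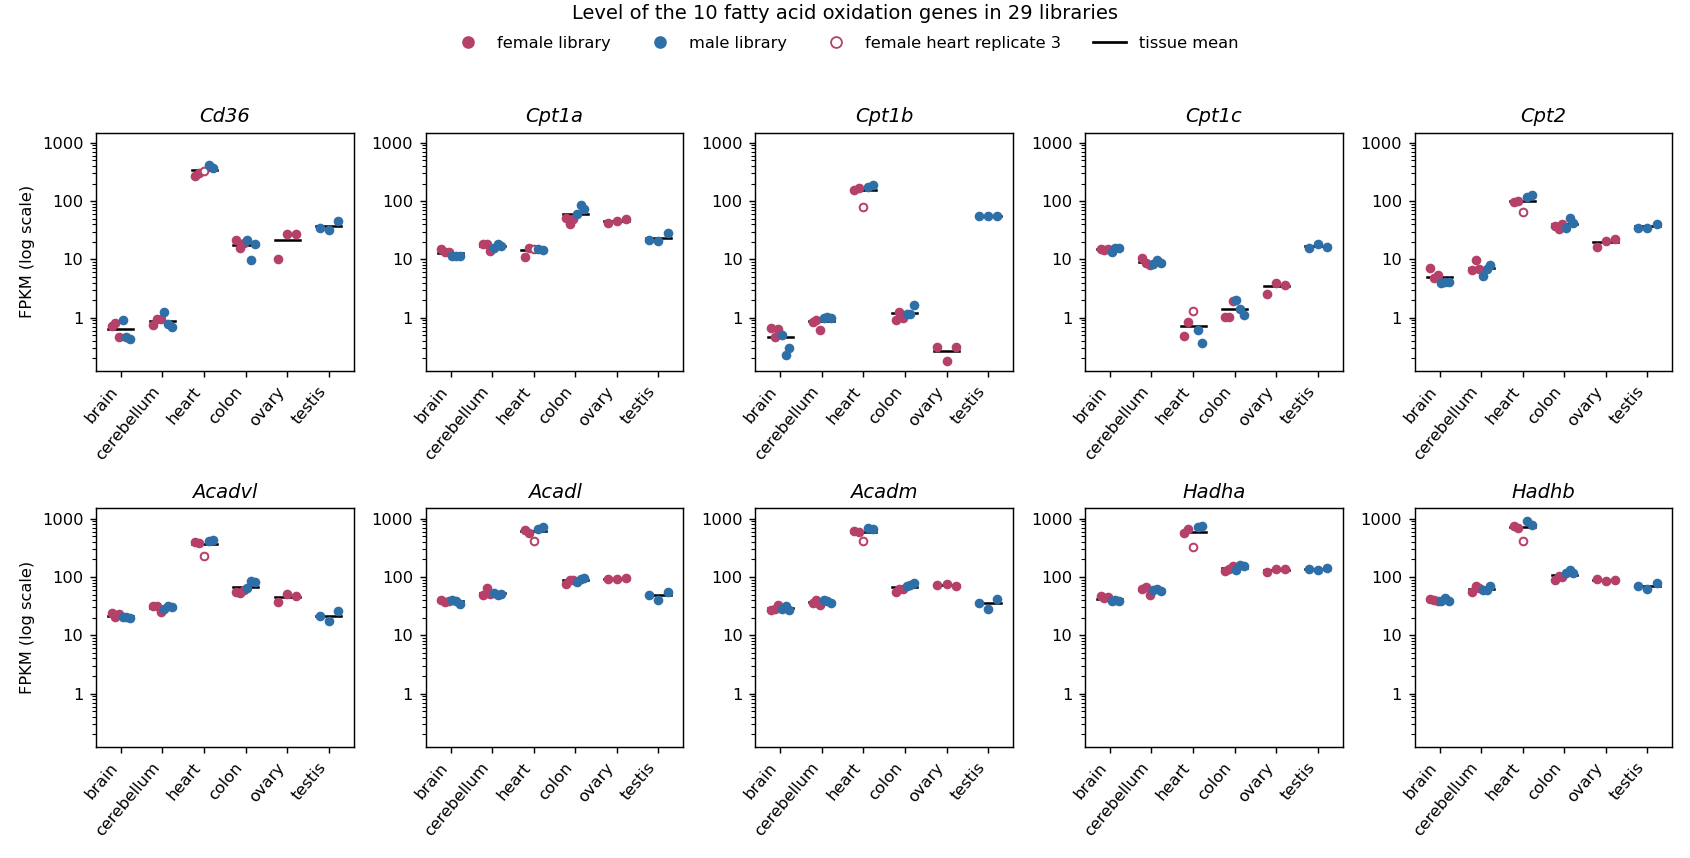
FPKM (vertical axis, log scale, the same range in every panel) of each member in 29 libraries by tissue, with 1 point per library, female and male libraries in different colours, replicate 3 of female heart as an open point and a bar at the tissue mean. In 8 panels every heart point lies above all points of the other tissues, the exceptions being *Cpt1a*, with its highest points in colon, and *Cpt1c*, with its highest points in testis and brain.

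The summed level of the 10 genes was 3490 ± 731 FPKM (SD, n = 5) in heart, with libraries from 2292 (replicate 3 of female heart) to 4093, and 3790 ± 337 (n = 4) without that replicate. It was 596 ± 71.5 in colon (n = 6), 522 ± 29.7 in ovary (n = 3), 483 ± 45.4 in testis (n = 3), 279 ± 19.6 in cerebellum (n = 6) and 205 ± 11.1 in brain (n = 6). These reads made up 0.856% ± 0.178 of all counts in heart (0.928% ± 0.0894 without it) and 0.0511% ± 0.00298 in brain. The lowest heart library lay above the highest library of any other tissue, which was a colon library at 696 FPKM. With TMM factors in the library size, the sum of ovary (389 FPKM) fell below that of testis (560).

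In heart against the mean of the other 5 tissues, 10 of 10 members were called, 8 higher and 2 lower, where 51.7% of all tested genes were called (22.1% higher and 29.6% lower). The median log2 difference of the members was 3.94, beside -0.55 over all tested genes. On library totals in place of TMM, the median of all genes moved to -1.03 and the share of higher genes among those called fell from 42.7% to 24.2%, and the members still counted 8 higher and 2 lower. Without replicate 3 of female heart the count was again 8 higher and 2 lower. In single pairs of tissues, 123 of the 150 differences of a member between 2 tissues were called, where 58.6% of the differences of all tested genes were called over the same pairs, from 26.1% between brain and cerebellum to 71.9% between colon and testis.

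**Figure D2:**
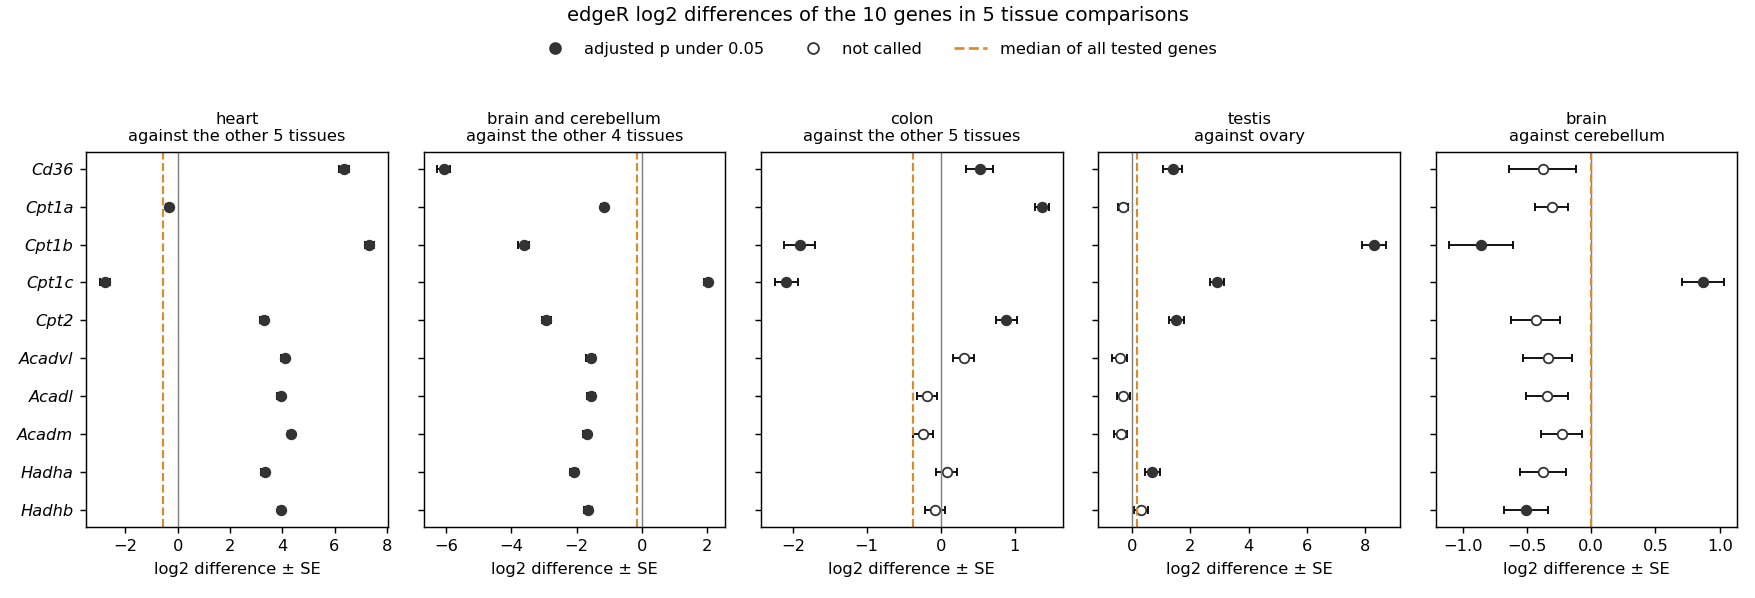
Log2 difference with its standard error (horizontal axis) of the 10 members (vertical axis) in 5 comparisons of tissues, with filled points for members called at an adjusted p under 0.05, open points for the others and a dashed line at the median of all tested genes. In heart 8 members lie at 3.30 or above, in brain and cerebellum *Cpt1c* alone lies above 0, and the comparisons share tissues with each other.

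*Cd36* encodes the fatty acid translocase of the plasma membrane and lies on chr5:17781687-17888815 (GRCm38.p6, minus strand), with 9 Iso-seq transcripts. Its level was 270, 301 and 324 FPKM in the 3 female heart libraries and 408 and 370 in the 2 male ones. In testis it was 34.6, 31.7 and 45.2 FPKM, in ovary 10.1, 27.5 and 27.5, and in colon 9.89 to 21.8 with a median of 18.5. Cerebellum (0.677 to 1.27 FPKM, median 0.858) and brain (0.421 to 0.903, median 0.590) were lowest, and every heart library lay above every other library. The log2 difference of heart from the other tissues was 6.36 (SE 0.18, edgeR adjusted p = 7.39e-20), and it was 6.45 without replicate 3 of female heart. In the order of tissues, *Cd36* was higher in testis than in ovary (log2 difference 1.39, SE 0.33, adjusted p = 0.000625), while ovary and colon (0.04, SE 0.28, adjusted p = 1.00) and cerebellum and brain (0.38, SE 0.26, adjusted p = 0.336) did not pass the test.

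CD36 is also made by adipocytes, endothelial cells and macrophages, and their markers were read in the same libraries. In brain and cerebellum, 6 of 6 adipocyte markers (*Adipoq*, *Cfd*, *Plin1*, *Cidec*, *Lep* and *Retn*) stayed below 1 FPKM in every library and their sum was 0.114 to 0.908. In ovary their sum was 24.8 FPKM in replicate 1, which held the lowest *Cd36*, and 385 and 180 in replicates 2 and 3. In colon it ran from 50.4 to 465 FPKM, and the library with the lowest sum, replicate 2 of male colon, was also the one with the lowest *Cd36*. The other colon libraries did not follow that order, since replicate 1 of male colon held the next lowest sum (168) with 21.8 FPKM of *Cd36*, and replicate 3 of female colon the highest sum with 18.8. Testis held 153 to 199. In heart the sum was 0.590 to 8.21 FPKM in 4 libraries, with *Lep* at 0 in each, and 3510 in replicate 3 of female heart. That library held 324 FPKM of *Cd36*, beside 270 to 408 in the other 4, while its *Myh6*, *Myl2*, *Actc1* and *Tnnt2* stood at 0.407 to 0.528 times their mean. The 2 brown adipocyte markers, *Ucp1* and *Cidea*, summed to 15.0 to 21.4 FPKM in these 4 libraries, all of it *Cidea*, and to 145 in that one. The 5 endothelial markers summed to 86.1 to 169 FPKM in heart, 97.0 to 119 in ovary, 24.4 to 41.1 in colon, 10.2 to 13.9 in testis and 14.5 to 24.7 in brain and cerebellum. The 4 macrophage markers summed to 66.5 to 171 FPKM in heart, 71.0 to 183 in colon, 84.6 to 126 in ovary, 40.7 to 61.4 in testis and 37.6 to 88.7 in brain and cerebellum. The part of these cells in the levels of heart, colon, ovary and testis was not tested.

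**Figure D3:**
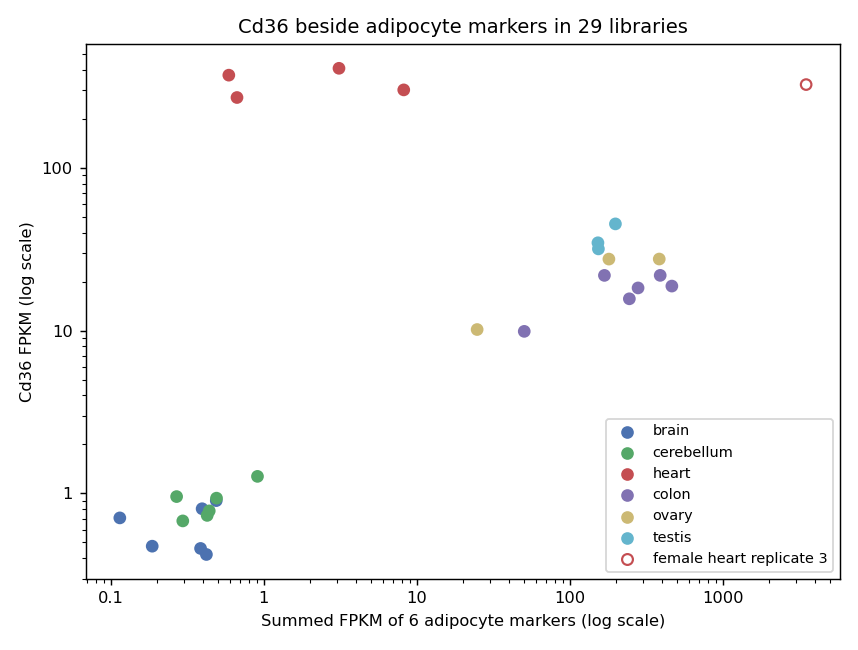
*Cd36* level in FPKM (vertical axis, log scale) against the summed FPKM of 6 adipocyte markers (horizontal axis, log scale), with 1 point per library coloured by tissue and replicate 3 of female heart as an open point. The heart points lie at 270 to 408 FPKM of *Cd36*, 4 of them at marker sums of 0.590 to 8.21 and 1 at 3510, and the lowest points of ovary and of colon on the vertical axis are also the lowest of their tissue on the horizontal axis.

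The 3 Cpt1 genes divided the tissues among them. *Cpt1a* lies on chr19:3323348-3385733 (plus strand, 9 Iso-seq transcripts), *Cpt1b* on chr15:89416404-89426237 (minus strand, 5 transcripts) and *Cpt1c* on chr7:44958485-44974845 (minus strand, 12 transcripts). The *Cpt1b* locus also carries a second ENSEMBL gene, Gm44502, so the counts of *Cpt1b* cannot be separated from those of that gene. Of *Cpt1c*, 366 exon bases are shared with 6530437J22Rik on the opposite strand. Reads on these bases are uncertain where the counting did not use strand, which is not stated.

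*Cpt1b* was at 152, 170 and 80.0 FPKM in female heart and at 177 and 192 in male heart, the value of 80.0 being that of replicate 3. Testis held 54.5, 56.2 and 55.2 FPKM, a narrow range that lay below every heart library. Elsewhere no library exceeded 1.67 FPKM, with medians of 1.16 in colon, 0.949 in cerebellum, 0.487 in brain and 0.313 in ovary. The log2 difference of heart from the other tissues was 7.34 (SE 0.18, edgeR adjusted p = 3.52e-21) and 7.53 without replicate 3 of female heart, and that of testis from ovary was 8.31 (SE 0.42, adjusted p = 8.53e-15). Heart exceeded testis by 1.80 (SE 0.28, adjusted p = 3.45e-06) on the log2 scale, and colon and cerebellum did not differ beyond their spread (0.40, SE 0.24, adjusted p = 0.143).

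*Cpt1a* was highest in colon, at 40.7 to 84.2 FPKM with a median of 55.2, and in ovary, at 42.8, 45.6 and 49.0 FPKM. Testis held 21.8, 20.5 and 28.7 FPKM, all below ovary, though the fit did not separate the 2 (-0.32, SE 0.18, adjusted p = 0.128). Lower still were cerebellum at 14.1 to 18.6 (median 17.6), heart at 11.0, 15.8, 14.9, 15.1 and 14.7, and brain at 11.2 to 14.9 (median 12.4). Its range over tissue means was 4.70-fold, against 569-fold for *Cpt1b*. In colon against the other 5 tissues *Cpt1a* was higher by 1.37 on the log2 scale (SE 0.10, edgeR adjusted p = 2.22e-12), and in heart against the other 5 it was lower, at -0.35 (SE 0.11, adjusted p = 0.0124). The latter call was lost without either male heart library (adjusted p = 0.0526 without replicate 1 and 0.0541 without replicate 2) and without replicate 2 of testis (0.0562), and without replicate 3 of female heart the difference was -0.26 and was still called. Heart and cerebellum changed places with the scale, since cerebellum was higher in mean FPKM and lower, at -0.33 in the fit (SE 0.14, adjusted p = 0.0388).

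*Cpt1c* was at 15.9, 18.1 and 16.2 FPKM in testis, 13.3 to 15.9 in brain (median 15.1) and 7.98 to 10.4 in cerebellum (median 8.61). It was lower in ovary (2.59, 3.99 and 3.68 FPKM), colon (1.04 to 1.99, median 1.27) and heart (0.491, 0.837, 1.29, 0.6249 and 0.367). The log2 difference of heart from the other tissues was -2.79 (SE 0.19, edgeR adjusted p = 1.31e-12), and -2.83 without replicate 3 of female heart, the library at 1.29 FPKM. In brain and cerebellum against the other 4 tissues it was the only member higher, by 2.01 on the log2 scale (SE 0.11, edgeR adjusted p = 9.97e-15). Brain exceeded cerebellum by 0.87 (SE 0.16, adjusted p = 0.000160), and testis and brain did not differ beyond their spread (0.37, SE 0.19, adjusted p = 0.0857). The high level of *Cpt1c* outside the nervous system was thus in testis, where the 5 neuron markers (*Snap25*, *Syt1*, *Rbfox3*, *Syn1* and *Nefl*) each stayed below 1 FPKM in every library and summed to 1.04 to 1.41, beside 1164 to 1563 in brain. Which cells of testis held *Cpt1c* was not tested.

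As a share of the summed FPKM of the 3 genes, *Cpt1b* took 90.4% ± 4.11 (SD, n = 5) in heart and 57.8% ± 2.30 (n = 3) in testis. *Cpt1a* took 95.6% ± 1.09 (n = 6) in colon, 92.6% ± 1.03 (n = 3) in ovary and 63.4% ± 1.54 (n = 6) in cerebellum. In brain, *Cpt1c* with 53.3% ± 3.34 and *Cpt1a* with 45.0% ± 2.85 (n = 6) were near each other. Without dividing by length their order turned, to 48.1% for *Cpt1c* and 50.3% for *Cpt1a*. In testis the rest of the sum was spread over both other genes, with 24.6% ± 3.62 for *Cpt1a* and 17.5% ± 1.51 for *Cpt1c*. In replicate 3 of female heart *Cpt1b* took 83.1%, below the 91.1% to 93.0% of the other 4 heart libraries.

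**Figure D4:**
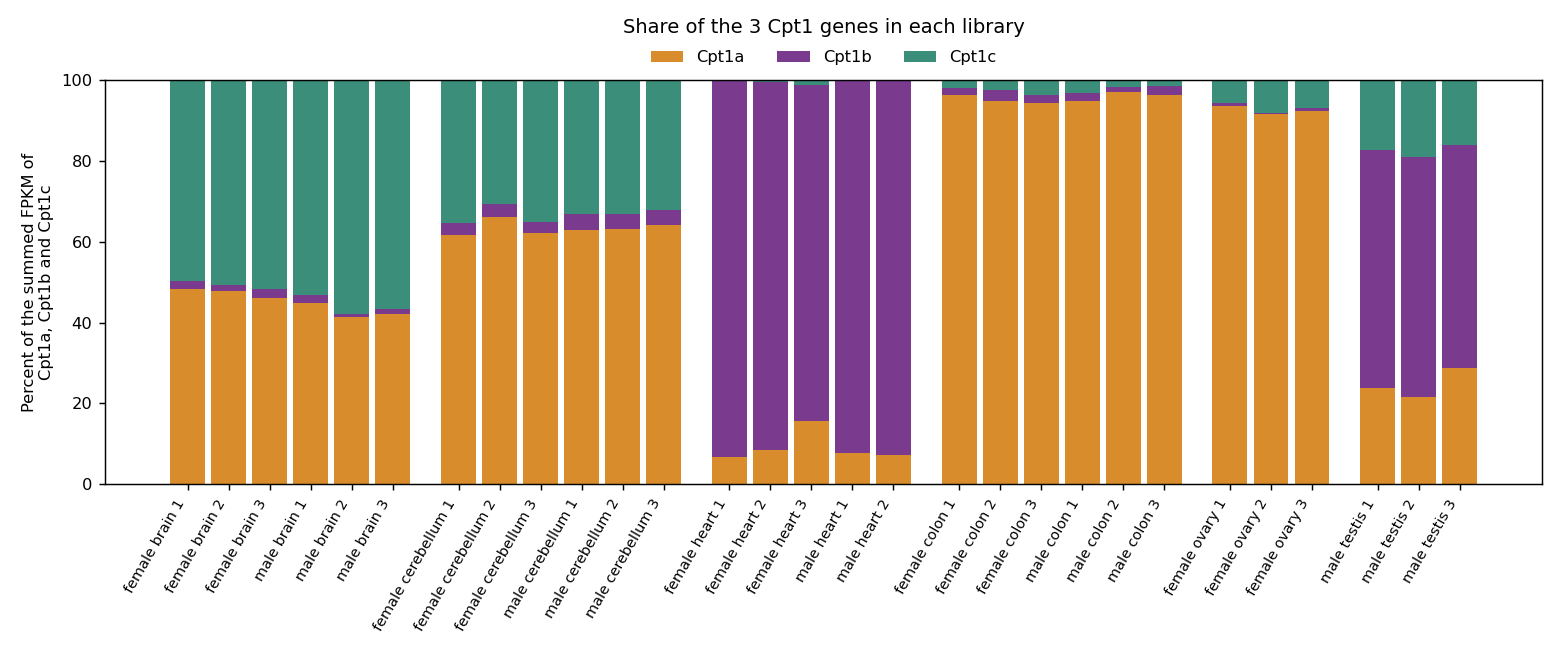
Percent of the summed FPKM of *Cpt1a*, *Cpt1b* and *Cpt1c* (vertical axis) taken by each gene in 29 libraries (horizontal axis), with 1 stacked bar per library and a colour per gene. *Cpt1b* fills 83.1% to 93.0% of the heart bars, *Cpt1a* 94.3% to 97.0% of the colon bars and *Cpt1c* 49.6% to 57.9% of the brain bars.

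By the likeness of log2(FPKM + 1) over 29 libraries among 16537 other protein-coding genes, *Cpt1b* was nearest to *Myo18b* (Pearson's r = 0.99), *Asb15* (0.99) and *Asb12* (0.98), of which *Myo18b* had means of 34.4 FPKM in heart and 15.0 in testis. *Cpt1c* was nearest to *Rfx3*, *Ppp2r2b* and *Srcin1* (each 0.98), *Cpt1a* to *Tpm2*, *Hao2* and *Esrp2* (each 0.96) and *Cd36* to *Lpl*, which encodes the lipase that frees fatty acids from lipoproteins (0.97), to *Cd300lg* (0.96) and to *Gmnn* (0.96). The libraries of a tissue share its level, so these values describe the pattern over 6 tissues. With a pseudocount of 0.1 in place of 1, 1 of the 3 nearest genes was kept for *Cpt1b* and 2 of 3 for each of the other 3 members.

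To show the sequence in front of genes with 3 different tissue patterns, the bases upstream of the RefSeq start (GRCm38.p6) are given for *Cpt1a*, highest in colon, *Cpt1c*, highest in testis and brain, and *Acadm*, highest in heart. Each is 5′ to 3′ on the strand of the gene and holds no base of an Iso-seq or GENCODE exon, though the GENCODE gene of *Cpt1a* begins farther upstream and its window lies between exons. Capitals mark AGGTCA, the half-site of nuclear receptors such as the PPARs, and GGGCGG, the core of Sp1 sites, on either strand (TGACCT and CCGCCC on the other strand). The window of *Cpt1a* is chr19:3323051-3323284, that of *Cpt1c* chr7:44974852-44975101 and that of *Acadm* chr3:153944644-153944893.
Cpt1a: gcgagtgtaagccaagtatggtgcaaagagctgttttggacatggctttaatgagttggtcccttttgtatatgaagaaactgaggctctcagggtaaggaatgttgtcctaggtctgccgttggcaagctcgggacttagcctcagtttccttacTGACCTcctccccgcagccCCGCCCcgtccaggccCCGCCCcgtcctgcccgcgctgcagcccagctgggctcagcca
Cpt1c: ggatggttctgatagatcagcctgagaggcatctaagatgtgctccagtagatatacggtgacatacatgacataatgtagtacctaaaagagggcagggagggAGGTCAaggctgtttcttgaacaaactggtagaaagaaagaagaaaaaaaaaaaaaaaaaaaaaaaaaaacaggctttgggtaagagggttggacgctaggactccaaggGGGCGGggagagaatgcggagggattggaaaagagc
Acadm: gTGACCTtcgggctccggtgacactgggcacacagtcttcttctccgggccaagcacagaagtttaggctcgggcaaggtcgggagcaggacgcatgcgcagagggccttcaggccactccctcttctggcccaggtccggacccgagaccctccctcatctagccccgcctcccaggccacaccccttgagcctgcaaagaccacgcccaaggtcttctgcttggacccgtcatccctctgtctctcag
Counted in the 250 bases before the start, AGGTCA was present in 5 of the 9 members with a RefSeq window (*Acadm*, *Acadvl*, *Cd36*, *Cpt1a* and *Cpt1c*), and in 14.0% of 32851 windows of that length. *Cpt1b* had no window and was not searched. The direct repeat of 2 such half-sites with 1 base between them was found in 0 of 9 and in 0.0335% of all. GGGCGG was in 7 of the 9 searched (all but *Acadm* and *Acadvl*) and in 32.7% of all windows, and TATAAA was in 0 of 9 and in 12.4%. The windows of *Hadha* and *Hadhb*, whose starts are 272 bases apart, overlap, so a match in both can be the same bases. The half-site extended by 1 base, AAGGTCA, which contains AGGTCA, was in *Acadm* alone and in 4.08% of all windows. A match is a description of the letters and not a binding site, and the half-site was present in members with each of the 3 patterns.

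*Cpt2*, the carnitine palmitoyltransferase of the inner membrane (chr4:107903983-107923582, minus strand, 1 Iso-seq transcript), was at 97.8, 102 and 65.7 FPKM in female heart and 119 and 126 in male heart. In the other tissues its means were 39.8 ± 6.52 in colon (SD, n = 6), 36.7 ± 3.38 in testis (n = 3), 19.9 ± 3.15 in ovary (n = 3), 7.15 ± 1.5 in cerebellum (n = 6) and 4.91 ± 1.25 in brain (n = 6). The heart libraries lay above all others. The log2 difference of heart was 3.30 (SE 0.14, edgeR adjusted p = 1.13e-16), or 3.46 without replicate 3 of female heart, and that of colon from the other 5 tissues was 0.89 (SE 0.14, adjusted p = 4.97e-06). With *Cd36*, it was the member called higher both in colon and in heart.

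The 3 acyl-CoA dehydrogenases differ in the chain length they prefer, very long for *Acadvl* (chr11:70010189-70015395, minus strand), long for *Acadl* (chr1:66830876-66863277, minus strand) and medium for *Acadm* (chr3:153922358-153944447, minus strand). *Acadvl* was at 400, 387 and 231 FPKM in female heart and 409 and 432 in male heart. *Acadl* was at 639, 576 and 423 and at 659 and 725 FPKM, and *Acadm* at 609, 594 and 411 and at 687 and 677. The value of replicate 3 of female heart was the lowest heart value of each gene and still lay above every library of the other tissues, whose highest were 86.0, 97.6 and 77.8 FPKM. The log2 differences of heart from the other tissues were 4.09 for *Acadvl* (SE 0.14), 3.93 for *Acadl* (SE 0.12) and 4.33 for *Acadm* (SE 0.12), each with an edgeR adjusted p of 2.10e-18 or below, and 4.27, 4.09 and 4.49 without replicate 3 of female heart.

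Outside the heart the 3 genes fell between 17.7 and 97.6 FPKM in every library. *Acadl* and *Acadm* kept one order of tissue means, with ovary (92.9 and 72.6 FPKM), colon (87.6 and 67.0), cerebellum (53.4 and 37.7), testis (48.3 and 35.6) and brain (38.3 and 29.3) after heart, and for both of them ovary and colon and also cerebellum and testis did not pass the test as neighbours. In the fit these neighbours ran the other way, with -0.21 and -0.18 for ovary minus colon and -0.19 and -0.25 for cerebellum minus testis. *Acadvl* was higher in colon (66.8 ± 14.2 FPKM, SD, n = 6) than in ovary (45.3 ± 7.57, n = 3) also in the fit, by a log2 difference of 0.83 (SE 0.24, edgeR adjusted p = 0.00501). Its lower neighbours, ovary and cerebellum, cerebellum and testis, and testis and brain, did not pass the test. Over 29 libraries, which share their tissues, the log2(FPKM + 1) values of *Acadl* and *Acadm* had a Pearson's r of 1.00 to 2 decimals, and *Acadvl* had 0.98 with each of them.

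The balance among the 3 dehydrogenases moved little beside their levels. *Acadl* had the highest mean share in each of the 6 tissues, from 38.5% ± 1.21 of their summed FPKM in heart (SD, n = 5) to 45.8% ± 0.951 in testis (n = 3). *Acadm* took 37.9% ± 0.988 in heart, within the spread of *Acadl* there and above it in replicate 2 of female heart (38.1% against 37.0%) and replicate 1 of male heart (39.1% against 37.5%). These heart shares of *Acadm* lay above the 29.1% to 32.3% of the colon libraries, and *Acadvl* took 30.0% ± 2.82 in colon (n = 6) and 20.6% ± 0.579 in testis (n = 3).

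**Figure D5:**
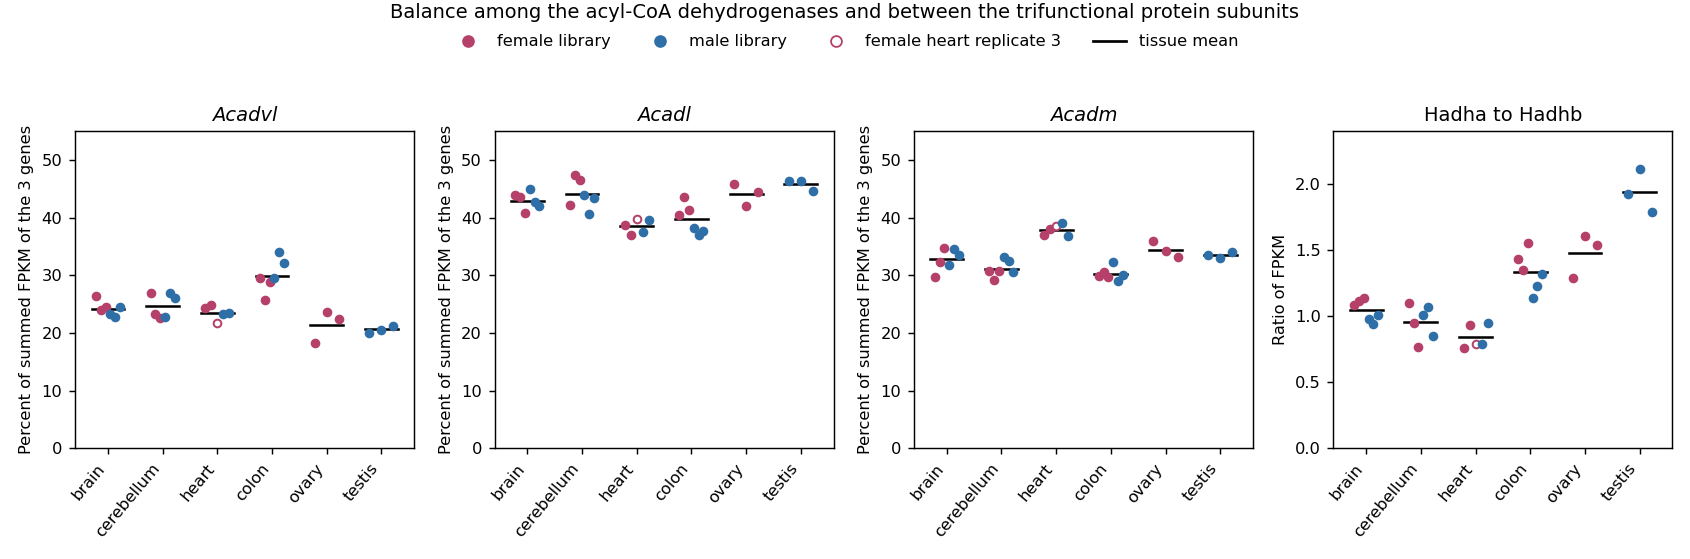
Percent of the summed FPKM of *Acadvl*, *Acadl* and *Acadm* taken by each of them, and the ratio of *Hadha* to *Hadhb* in FPKM (vertical axes, from 0), by tissue, with 1 point per library, female and male libraries in different colours, replicate 3 of female heart as an open point and a bar at the mean. The tissue means of the percentages lie between 20.6 and 45.8, and the ratio runs from 0.844 in heart to 1.94 in testis.

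*Hadha* and *Hadhb* encode the alpha and beta subunits of the trifunctional protein and stand head to head on chromosome 5, at chr5:30119426-30155526 (minus strand) and chr5:30155292-30184587 (plus strand). Their RefSeq starts are 272 bases apart, and 4 of the 12 Iso-seq transcripts of *Hadha* began inside the *Hadhb* locus, so that 48 exon bases of the 2 loci lie on opposite strands of the same sequence. *Hadha* was at 564, 656 and 327 FPKM in female heart and 712 and 748 in male heart, and *Hadhb* at 744, 704 and 414 and at 905 and 786. Their log2 differences of heart from the other tissues were 3.33 (SE 0.13) and 3.96 (SE 0.13), with edgeR adjusted p of 5.24e-17 and 7.28e-19, and were 3.52 and 4.14 without replicate 3 of female heart. In the other tissues the means of *Hadha* ran from 42.2 FPKM in brain to 146 in colon, and those of *Hadhb* from 40.4 in brain to 110 in colon.

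The ratio of *Hadha* to *Hadhb* was 0.844 ± 0.0912 in heart (SD, n = 5), 0.957 ± 0.130 in cerebellum and 1.05 ± 0.0805 in brain (n = 6 each), 1.34 ± 0.148 in colon (n = 6), 1.48 ± 0.167 in ovary (n = 3) and 1.94 ± 0.161 in testis (n = 3). The ratios were 1.93, 2.11 and 1.79 in the 3 testis libraries and at most 1.61 in every other library, and at most 0.952 in heart. A ratio of 2 genes depends on the lengths given to them, and the Iso-seq loci held 33.2% of the GENCODE exon bases of *Hadha* and 30.1% of those of *Hadhb*, so its level is less certain than its order over tissues. *Hadha* in testis (137, 132 and 141 FPKM) overlapped ovary (120 to 137) and colon (128 to 162), whereas *Hadhb* in testis (71.3, 62.5 and 78.9) lay below ovary (93.1, 84.2 and 89.1) and colon (89.5 to 132). Against ovary this order is that of FPKM alone. In the TMM fit testis was higher than ovary by 0.70 for *Hadha*, a call that was lost under other settings. For *Hadhb* it was higher by 0.32, which was not called (SE 0.24, edgeR adjusted p = 0.261).

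In brain and cerebellum against the other 4 tissues, 10 of 10 members were called, 1 higher and 9 lower, where 62.2% of all tested genes were called (34.8% higher and 27.5% lower). The median of the members was -1.68 on the log2 scale, beside -0.14 over all genes. Next to *Cpt1c*, the member that was higher, the lower ones ran from *Cd36* (-6.07, SE 0.20, edgeR adjusted p = 2.09e-19) and *Cpt1b* (-3.63, SE 0.18, adjusted p = 7.29e-16) to *Cpt1a* (-1.16, SE 0.09, adjusted p = 5.99e-12). *Cpt2* was lower, at -2.93 (SE 0.14), *Hadha* at -2.09 (SE 0.13), and *Hadhb* and the 3 dehydrogenases at -1.56 to -1.70. This comparison includes the heart among the other tissues.

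In brain against cerebellum, 1 member was called higher and 2 lower, where 26.1% of all genes were called (15.3% higher and 10.8% lower). *Cpt1c* was higher in brain, *Cpt1b* was lower, at -0.86 (SE 0.25, edgeR adjusted p = 0.0106) at levels near 1 FPKM or below, and *Hadhb* was at -0.51 (SE 0.17, adjusted p = 0.0310). The *Hadhb* call was lost without replicate 2 or 3 of female brain, 1 or 3 of male brain, 2 of female cerebellum or 3 of male cerebellum (adjusted p = 0.0573 to 0.0722). The other 7 members had log2 differences of -0.23 to -0.43 and did not pass the test. This count moved with the setting. It was 1 higher and 7 lower without replicate 3 of female heart, whose spread enters the fit, 1 higher and 8 lower on library totals, and 1 higher and 5 lower with DESeq2. The share of higher genes among all those called was 58.5%, and 44.7% on library totals. Over all genes, 8904 were called without replicate 3 of female heart, in place of 7796.

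In colon against the other 5 tissues, 3 members were higher and 2 lower, where 59.3% of all genes were called (28.2% higher and 31.1% lower). *Cpt1a* and *Cpt2* have been given, and *Cd36* was higher by 0.53 (SE 0.18, edgeR adjusted p = 0.0133), a call that was lost without replicate 1 of male colon (adjusted p = 0.0638). *Cpt1b* was lower, at -1.90 (SE 0.21) and *Cpt1c* at -2.09 (SE 0.16). The other 5 members had log2 differences of -0.24 to 0.31 and did not pass the test. Of these, *Acadvl* was called higher with DESeq2 (0.47, adjusted p = 0.00273), and by edgeR with RLE factors (0.47, adjusted p = 0.00507) and with no filter (0.41, adjusted p = 0.0112). Its call also changed in 5 of 29 refits that left out 1 library. The median of the members was 0.00, beside -0.38 over all genes. Without replicate 3 of female heart, 4 were higher and 4 lower, with *Acadvl* (0.28) added to the first and *Acadl* (-0.22) and *Acadm* (-0.27) to the second, and on library totals 5 were higher and 2 lower.

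In testis against ovary, where sex and organ cannot be told apart, 5 members were higher and 0 lower by edgeR, where 64.3% of all genes were called (37.8% higher and 26.5% lower). Beside *Cpt1b* and *Cd36*, these were *Cpt1c* (2.91, SE 0.24, adjusted p = 1.21e-10), *Cpt2* (1.52, SE 0.27, adjusted p = 2.26e-05) and *Hadha* (0.70, SE 0.26, adjusted p = 0.0194). The *Hadha* call was lost without replicate 1 of ovary (adjusted p = 0.0805), with no filter on low counts (0.0789) and with a block by library code (0.1465). The other 5 members had differences of -0.42 to 0.32 and did not pass the test. The scaling moved this count, and on library totals 4 members were higher and 4 lower, with *Cpt1a* at -0.95, *Acadl* at -0.94, *Acadm* at -1.03, *Acadvl* at -1.05 and *Hadha* at 0.06 (adjusted p = 0.761), while the median of all genes moved from 0.15 to -0.38 and the share of higher genes among those called from 58.8% to 44.1%. With TMM kept and no filter on low counts, *Cpt1a* (-0.52), *Acadl* (-0.51), *Acadm* (-0.60) and *Acadvl* (-0.63) were also called lower (edgeR adjusted p = 0.0180 to 0.0452). Without replicate 3 of female heart, 6 were higher and 2 lower.

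Between males and females, 0 of 10 members were called by edgeR in brain, cerebellum, heart or colon, where 0.0368%, 0.0301%, 0.0635% and 0.324% of all tested genes were called. DESeq2 also called 0 of 10 in each tissue, where it called 48, 22, 246 and 346 of all genes, in the same order of tissues. The members' log2 differences of male from female were -0.73 to 0.08 in brain, -0.19 to 0.36 in cerebellum, -0.56 to 0.56 in heart and -0.33 to 0.47 in colon, with lowest adjusted p of 1.00, 1.00, 0.532 and 0.396. An unadjusted p under 0.05 was reached by 0, 0, 0 and 1 members. That 1 was *Cpt1a* in colon, at 51.3, 40.7 and 48.7 FPKM in females and 59.0, 84.2 and 71.7 in males (log2 difference 0.47, SE 0.18). In FPKM the male and female libraries of 4 of 10 members did not overlap in colon (*Cpt1a*, *Acadm*, *Acadvl* and *Hadhb*, higher in males), where 13.4% of all tested genes did not. The same held for 4 in brain (*Cpt1a*, *Cpt2*, *Acadvl* and *Hadha*, lower in males) beside 13.4% of genes, for 1 in cerebellum (*Cpt1b*) beside 6.76%, and in heart for 8 (all but *Cpt1a* and *Cpt1c*, higher in males) beside 13.6%, none of which passed the test. In heart, 9 of the 10 differences were positive with a median of 0.46, and without replicate 3 of female heart the median was 0.11 and the lowest adjusted p 0.988. These medians are on the TMM scale, and leaving out a library cannot make separate FPKM ranges overlap. The standard errors of the members were 0.20 to 0.35 on the log2 scale in heart, and 0.18 to 0.37 in the other 3 tissues. The interaction of sex with tissue called 0 of 10 members, where 0.0167% of all genes were called, with a lowest adjusted p of 0.775 and 0 members at an unadjusted p under 0.05. DESeq2 called 0 members and 185 of all genes for the interaction.

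Of 79 other genes of the same metabolism, in 6 lists, 78 passed the filter on low counts, and all but *Fabp1* were therefore tested. In heart against the other tissues 54 of the 78 were higher (69.2%) and 11 lower (14.1%), where 22.1% and 29.6% of all tested genes were, with a median log2 difference of 1.33 beside -0.55 over all genes. Without replicate 3 of female heart 54 were higher and 16 lower, and on library totals 44 and 15. Mitochondrial beta-oxidation counted 12 of 14 higher and 0 lower, led by *Acad12* (3.90, SE 0.15) and *Eci1*, an enoyl-CoA isomerase (3.83, SE 0.13). Carnitine and acyl-CoA activation counted 7 of 12 higher and 4 lower, with *Acacb*, whose product makes the malonyl-CoA that inhibits CPT1 (4.86, SE 0.14), and *Acsl1*, a long-chain acyl-CoA synthetase (3.64, SE 0.15). *Acsl1* was at 199 ± 13.0 FPKM (SD, n = 3) in testis and 170 ± 25.9 (n = 5) in heart, the pair of tissues that also held *Cpt1b*, and at most 16.5 in any library of the others.

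Electron transfer and ketone bodies counted 6 of 10 higher and 2 lower. The list was led by *Oxct2b*, a ketone body transferase of male germ cells (-5.31, SE 1.02), which was at 132 to 158 FPKM in testis and at most 0.349 in any other library, and by *Etfdh*, which passes the electrons of the dehydrogenases on (3.87, SE 0.12). Uptake and lipid handling counted 10 of 15 higher and 4 lower, led by *Gpihbp1*, which anchors lipoprotein lipase on capillaries (7.56, SE 0.35), and *Lpl* (6.72, SE 0.21). Regulators counted 12 of 16 higher and 1 lower, led by *Ucp3* (6.15, SE 0.26) and *Pdk4*, the kinase that restrains pyruvate oxidation (5.59, SE 0.20). Peroxisomal beta-oxidation counted 7 of 11 higher and 0 lower with smaller differences, led by *Ehhadh* (1.66, SE 0.13) and *Scp2* (1.49, SE 0.10), and its median was 0.67 beside 2.73 for the mitochondrial list. This list moved with the setting, to 4 higher and 1 lower (median 0.13) on library totals and to 7 higher and 2 lower without replicate 3 of female heart, while the mitochondrial list stood at 11 and 12 higher and 0 lower. On library totals the carnitine list counted 5 higher and 4 lower (median -0.11) and the regulators 10 higher and 3 lower. The edgeR adjusted p of each gene named from these lists was 8.81e-05 or below.

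In brain and cerebellum against the other 4 tissues, 19 of the 78 were higher (24.4%) and 47 lower (60.3%), where 34.8% and 27.5% of all genes were, with a median of -0.90 beside -0.14. In colon 37 were higher (47.4%) and 24 lower (30.8%), where 28.2% and 31.1% of all genes were, with a median of 0.24 beside -0.38, so that the share of lower genes was near that of all genes. There the peroxisomal list had 8 of 11 higher and 1 lower, and the mitochondrial list 3 of 14 higher and 6 lower, or 4 and 4 on library totals. In testis against ovary 26 were higher (33.3%) and 24 lower (30.8%), near the 37.8% and 26.5% of all genes, with a median of -0.12 beside 0.15. This split moved with the scaling, to 15 higher and 41 lower on library totals, and that of the mitochondrial list from 2 higher and 7 lower to 0 and 11. Between brain and cerebellum 5 were higher and 15 lower, so that 25.6% were called, near the 26.1% of all genes, with 6.41% higher and 19.2% lower where 15.3% and 10.8% of all genes were. Without replicate 3 of female heart 7 were higher and 20 lower in that comparison, and on library totals 3 and 27. Between the sexes, 1 of the 78 was called in colon, where 0.324% of all tested genes were. In brain, cerebellum and heart 0 were called, where 0.0301% to 0.0635% of all tested genes were. The 1 in colon was *Fabp7*, a brain fatty acid binding protein that was lower in males (-2.10, SE 0.41, edgeR adjusted p = 0.0137) and was named after its value was seen.

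The mitochondrially encoded genes took 7.41% to 13.6% of the counts in heart libraries and at most 6.26% in any other. Leaving them out of the fit left the members' counts in heart at 8 higher and 2 lower. Tau, which runs from 0 for even levels to 1 for a single tissue, was 0.95 for *Cd36*, 0.92 for *Cpt1b* and *Acadm*, 0.89 to 0.90 for *Acadvl*, *Hadhb* and *Acadl*, 0.83 for *Hadha*, 0.79 for *Cpt2*, 0.65 for *Cpt1c* and 0.62 for *Cpt1a*, beside a median of 0.68 over 16547 protein-coding genes with a tissue mean of at least 1 FPKM.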

How the data were processed

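The authors deposited 1 table of raw counts per gene for 29 libraries, with a GTF of Iso-seq loci and a map of these to ENSEMBL genes. Per the submitters' processing notes, reads were checked with FastQC 0.11.8 and MultiQC 0.9, aligned with HISAT2 2.0.5 to mm10 (GRCm38.p6) and counted with featureCounts 1.6.3. Whether featureCounts used strand is not given in the sources used here. Each member was counted over its Iso-seq locus, which holds 30.1% to 99.3% of its GENCODE exon bases, and this bears on levels per length.

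From the counts, genes were filtered with filterByExpr and fitted over all 29 libraries with TMM and edgeR 4.0.16 (R 4.3.3) quasi-likelihood tests, with 1 coefficient for each of the 10 groups and tissues averaged over sexes. Benjamini-Hochberg adjustment ran over all 29911 tested genes at a threshold of 0.05. FPKM were computed here from the total count and the union of exons of the counted locus, with Python 3.11.15, pandas 2.3.3 and numpy 2.4.6, and log2 values used a pseudocount of 1. DESeq2 1.42.0, RLE factors, no filter, other lengths, 2 replicate blocks and leaving out each library were alternatives. The fit was tested on simulated data. All 10 members are named. From each of the 6 pathway lists the 2 genes called with the largest change in heart were named. For *Cpt1a*, *Cpt1b*, *Cpt1c* and *Cd36* the 3 most similar genes were named. The members and lists were chosen with earlier results of these data known. Of 28 replicate pairs, 0 held identical values.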

Additional observations from a re-analysis of the deposited data

Results flagged for a closer look

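Of 68 groups of 5 or 6 libraries (ovary and testis, with 3 each, were not tested) in which the highest and lowest value were compared with the others, 6 had a library far from the rest, and chance gives about 1 in 20 groups. *Cpt1a* in heart was 11.0 FPKM in replicate 1 of female heart, against 14.7 to 15.8 in the other 4 libraries. *Acadl* in cerebellum was 65.7 FPKM in replicate 2 of female cerebellum, against 48.4 to 53.8. *Acadvl* in heart was 231 FPKM in replicate 3 of female heart, against 387 to 432. In the same library *Cpt1a* took 15.5% of the Cpt1 sum against 6.69% to 8.48%, *Cpt1b* 83.1% against 91.1% to 93.0%, and *Cpt1c* 1.34% against 0.178% to 0.449%. These 3 shares add to the whole and are not independent of each other. This is the library with the *Nppa*, *Adipoq* and *Ucp1* levels given above.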

How the results depend on the processing

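Of 350 log2 differences of the 10 members in 5 tissue comparisons under 7 other settings, 316 kept direction and call, 24 gained a call, 4 lost one and 6 changed sign, all of them *Hadhb*: in colon to 0.0782 with DESeq2 and with RLE factors, 0.0843 on library totals (a setting chosen after seeing the data) and 0.0261 with no filter, and in testis against ovary to -0.32 on library totals and -0.0236 with the block by library code. Counts of genes between the sexes moved. DESeq2 called 48 in brain, 22 in cerebellum, 246 in heart, 346 in colon and 185 for the interaction. With no filter heart had 30 and the interaction 12, the interaction had 3 with RLE and 1 on library totals, and each tissue fitted alone gave 5 in heart and 38 in colon. Without length, *Cpt1c* took 48.1% and *Cpt1a* 50.3% in brain, and the *Hadha* to *Hadhb* ratio was 1.39 in heart and 3.19 in testis. With the longest transcript *Cpt1b* took 61.5% in testis. With TMM in the library size the sum of the members was 4917 FPKM in heart, 389 in ovary and 560 in testis. The cause was not tested.

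Replicate numbers did not pair the libraries (15 of 56 same-numbered pairs of a sex had correlated deviations above 0.1, and 11 of 29 libraries correlated best with their own number). With the replicate block the counts were 15132 in heart, 7338 between brain and cerebellum and 1 for the interaction, and the number of members called was as without it. By the first digit of the library code in the labels, whose meaning they do not give, 19 of 50 pairs were above 0.1 and 15 of 25 libraries correlated best with their own digit. In a block on this digit within each sex, the libraries with a code of 1 digit shared 1 level (replicate 2 of female brain, replicate 3 of ovary and replicate 3 of female heart). The block left the number of members called as it was, except 4 in place of 5 in testis against ovary (*Hadha*, adjusted p = 0.1465). It gave 7 genes between the sexes in brain, 10 in heart and 2 for the interaction.

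Leaving out 1 library gave 13768 to 15935 genes in heart, 18230 to 18747 in brain and cerebellum, 16970 to 18054 in colon, 17443 to 19880 in testis against ovary and 6638 to 8904 in brain against cerebellum. Between the sexes it gave 8 to 16 in brain, 8 to 13 in cerebellum, 7 (without replicate 1 of male heart) to 285 (without replicate 2 of female heart) in heart, 43 (without replicate 1 of male colon) to 157 (without replicate 3 of female heart) in colon, and 0 to 14 for the interaction. The settings for the pathway lists and the heart sum were also chosen after seeing the data. The tissue pairs called for members were 120 to 134.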

Other observations

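Replicate 3 of female heart did not lower the members alike. Relative to the mean of the other 4 heart libraries, *Cpt1b* stood at 0.463, *Hadha* at 0.488, *Hadhb* at 0.528, *Acadvl* at 0.566, *Cpt2* at 0.591, *Acadm* at 0.640 and *Acadl* at 0.651, beside 0.407 to 0.528 for the contractile genes *Myh6*, *Myl2*, *Actc1* and *Tnnt2*. *Cd36* stood at 0.961, *Cpt1a* at 1.06 and *Cpt1c* at 2.22. These are single values of 1 library with no replicate, and the part of its adipocyte and atrial transcripts in them was not tested.

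Over 29 libraries, which share 6 tissues, the log2(FPKM + 1) of *Cd36* went with that of *Hadha* (Pearson's r = 0.97) and *Cpt2* (0.95), and *Cpt2* went with *Hadha* (0.96) more closely than with *Acadl* (0.82). *Cpt1c* had negative values with each of the other 9 members, from -0.36 with *Cpt1b* to -0.87 with *Acadvl*, and *Cpt1a* had -0.42 to 0.35 with the other 9. These are descriptions of tissue patterns.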
